A study of Mus musculus with 18 samples.

Results

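Heterotrimeric G proteins carry signals from membrane receptors into the cell, and 8 genes for their beta and gamma subunits were followed across 18 arrays of bone marrow-derived macrophages. The genes were the beta subunits Gnb4, Gnb1, Gnb2 and Gnb5 and the gamma subunits Gng2, Gng5, Gng10 and Gng12, 8 of the 19475 genes that had a probe set assigned to that gene alone. They were chosen by name: Gnb4 because its knockout minus heterozygote difference after 4 h of lipopolysaccharide was known, and the others as subunits of the same complex. The 4 h genotype difference is therefore given as a description for all 8 genes, and for Gnb4 no test was made on any contrast that uses the 4 h arrays. Results of the untreated and 2 h arrays were also known when the genes were chosen, so calls for Gnb4 there are not independent of its choice.

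The study compared macrophages without Wbp7, a histone H3 lysine methyltransferase (Kmt2b in current nomenclature), with macrophages that keep 1 allele. Bone marrow of mice whose background was 94% C57BL/6 and 6% 129/Ola was grown with L929-conditioned medium, a source of macrophage growth factor, and used on day 7 of differentiation. Wbp7+/- (HET) and Wbp7-/- (KO) cells were left untreated or given lipopolysaccharide (LPS, a bacterial cell wall component that activates Toll-like receptor 4) at 10 ug/ml for 2 h or 4 h, with 3 arrays in each of the 6 groups. The controls are heterozygotes, so every group lacks at least 1 allele, and no wild-type sample was analysed here. How the allele was deleted, the age and sex of the mice and any pooling of animals were not found in the labels, which also do not say that replicates came from separate animals, so p-values measure the spread between these arrays.

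A G protein consists of an alpha subunit that binds GDP or GTP and a beta-gamma dimer that stays together. An activated receptor makes alpha exchange GDP for GTP, and alpha and beta-gamma then act separately, beta-gamma on phosphoinositide 3-kinase gamma, phospholipase C beta, adenylyl cyclases, ion channels and receptor kinases. In macrophages and other leukocytes, beta-gamma released from Gi-coupled chemoattractant receptors drives directed migration. Beta subunits are propeller-shaped WD40-repeat proteins, and gamma subunits are small prenylated proteins that hold the dimer to the membrane.

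Macrophage markers were high in all groups: all 8 measured macrophage markers exceeded the array median on all 18 arrays, and the median of the list lay between 13.02 and 13.82 (log2 signal, the RMA summary of a gene's probes). Of the other cell types, 0 of 6 T and NK cell, 0 of 5 mast cell, 0 of 5 dendritic cell, 0 of 2 erythroid, 1 of 4 B cell, 1 of 3 megakaryocyte, 2 of 8 neutrophil and 3 of 6 stromal and endothelial markers exceeded the array median on all arrays. Wbp7, read by the probe set listed under Kmt2b, differed by -0.24 (SE 0.156, adjusted p = 1), -0.06 (adjusted p = 0.915) and -0.09 (adjusted p = 0.718) between KO and HET without LPS, at 2 h and at 4 h (log2, limma, p adjusted by Benjamini-Hochberg over all genes). No label places that probe set relative to the deletion, so it did not check the genotypes. HET replicate 1 stood apart at all 3 times: the SD of its gene-wise differences from another replicate was 0.435 to 0.531, against 0.175 to 0.279 for the other 12 replicate pairs. Against the mean of the other HET replicates, the median log2 difference of its 15 cell cycle genes was -3.23, -3.14 and -2.55 without LPS, at 2 h and at 4 h, and that of its 10 interferon response genes was 1.25, 0.57 and 0.17. Whether these differences had a part in the results below was not tested, and values without HET replicate 1 are given where they differ in call.

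Gnb4 encodes the G beta 4 subunit, which pairs with gamma subunits and takes part in receptor coupling like its close relatives Gnb1 and Gnb2. It was the member that changed most over the arrays, which its choice by its 4 h difference favoured. Gnb4 rose in HET macrophages after 2 h of LPS, and was lower in KO than in HET macrophages at 2 h. Its log2 signal in untreated HET macrophages was 7.83, 7.998 and 7.80 in replicates 1 to 3 (mean 7.88 ± 0.107, SD, n = 3). After 2 h of LPS the 3 HET arrays read 9.22, 8.67 and 8.72 (8.87 ± 0.306, SD, n = 3), and after 4 h they read 11.24, 11.23 and 10.80 (11.09 ± 0.249, SD, n = 3). The HET groups thus stepped up without any overlap; in bulk RNA, a change in the share of cells and a change per cell cannot be told apart. In KO macrophages the untreated arrays read 7.32, 6.93 and 6.88 (7.04 ± 0.244, SD, n = 3). At 2 h they read 7.37, 7.46 and 7.01 (7.28 ± 0.239, SD, n = 3), and at 4 h they read 8.50, 7.64 and 8.39 (8.18 ± 0.469, SD, n = 3). The KO arrays of 2 h overlapped those without LPS, and all 3 KO arrays of 4 h lay above both.

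**Figure D1:**
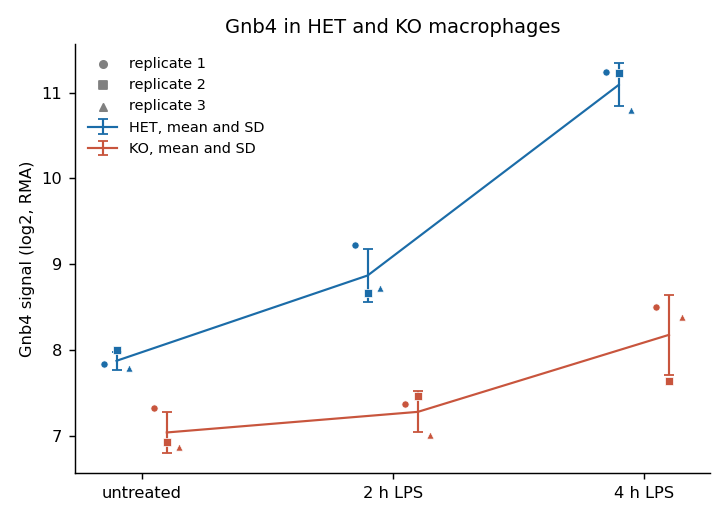
Log2 signal of Gnb4 (vertical axis) in untreated, 2 h LPS and 4 h LPS macrophages (horizontal axis), each point 1 array, with group means and SD (n = 3), HET and KO in separate colours. At 4 h the HET arrays lie between 10.80 and 11.24 and the KO arrays between 7.64 and 8.50.

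Ordered by group mean, HET at 4 h stood highest, followed by HET at 2 h, KO at 4 h, untreated HET, KO at 2 h and untreated KO. The arrays of KO at 4 h and untreated HET overlapped, as did those of KO at 2 h and untreated KO. The other neighbours in that order did not overlap. Gnb4 exceeded the array median on 8 of 18 arrays and the array's lower quartile on all 18.

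At 2 h, Gnb4 was 3.01-fold lower in KO than in HET macrophages: the limma log2 difference was -1.59 (SE 0.217, 95% interval -2.05 to -1.13, adjusted p = 0.0016), where a call is an adjusted p under 0.05 over all genes. The 3 KO arrays all lay below the 3 HET arrays. Over the 16 alternative settings of that comparison the difference ranged from -1.69 to -1.41, and the call held in each, including -1.41 (adjusted p = 0.00688) without the HET replicate 1 arrays. Gnb4 was 1 of 8 members called there, against 2.76% of all genes tested. As Gnb4 was chosen with earlier results of these data known, this share is a description.

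Without LPS, the Gnb4 difference between KO and HET was -0.83 (SE 0.217, 95% interval -1.30 to -0.37, unadjusted p = 0.00156), and limma's adjusted p of 0.192 did not pass. All 3 KO arrays lay below all 3 HET arrays, which is a description. The share of all genes without overlap between groups was not counted in any comparison. With array quality weights the estimate was -0.92 and passed (limma, adjusted p = 0.0316). None of the 8 members was called in untreated macrophages (limma, 0 of 8, with 1 of 8 at an unadjusted p under 0.05), where 0.416% of all genes were. At 4 h the Gnb4 difference was -2.91 (SE 0.217, 95% interval -3.37 to -2.45), or 7.53-fold, the value for which the gene had been chosen, and 2.42% of all genes were called.

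Group means of some other genes are described here without a test. Of the 8 neutrophil and granulocyte progenitor markers, Elane had group means of 8.70, 8.97 and 9.07 in HET and of 9.85, 9.76 and 9.95 in KO without LPS, at 2 h and at 4 h, and Mpo had means of 8.18, 8.29 and 8.57 in HET and of 9.40, 9.44 and 9.65 in KO. S100a8, Ltf and Ngp went the other way, with lower means in KO than in HET at each time. For Ngp these were 10.72, 11.31 and 11.51 in HET and 10.60, 10.75 and 11.05 in KO. S100a9, Camp and Ly6g were higher in KO at some times and lower at others. The median of the whole list lay between 7.90 and 8.70 in untreated HET and 8.17 and 8.78 in untreated KO, while at 2 h it lay between 8.57 and 8.91 in HET and 8.57 and 8.71 in KO. At 4 h it lay between 8.77 and 9.04 in HET and 8.57 and 9.08 in KO. The median of the 10 interferon response genes lay between 10.67 and 12.19 in untreated HET and 9.49 and 10.60 in untreated KO, while at 2 h it lay between 12.89 and 13.76 in HET and 11.33 and 12.25 in KO. Their part in the Gnb4 difference was not tested.

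LPS raised Gnb4 in HET macrophages by 0.99 at 2 h (limma, SE 0.217, adjusted p = 0.00494), a 1.99-fold rise, and Gnb4 was 1 of 8 members called in a comparison that called 15.6% of all genes. Without the HET replicate 1 arrays the rise was 0.80 and the call was lost (limma, adjusted p = 0.0532). In KO macrophages the 2 h difference was 0.24 (SE 0.217, 95% interval -0.22 to 0.70, limma adjusted p = 0.765). No member was called there (limma, 0 of 8, and 0 of 8 at an unadjusted p under 0.05), where 3.35% of all genes were. The test of the difference between these responses gave -0.75 (SE 0.307, 95% interval -1.41 to -0.10, unadjusted p = 0.0267, limma adjusted p = 0.778), so a smaller 2 h response of Gnb4 in KO was not established over all genes. That interaction called 0 of 8 members (1 of 8 at an unadjusted p under 0.05) and 0.00% of all genes. As a description, Gnb4 at 4 h stood 3.21 above untreated in HET (9.28-fold) and 1.14 above untreated in KO (2.20-fold), a difference of -2.08 (SE 0.307) between the genotypes.

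The promoters of the 3 subunits whose 4 h LPS response was called are shown because Gnb5 and Gng2 fell while Gng12 rose. RefSeq (GRCm38.p6) start sites matched 7 of the 8 members, Gng12 with 2 windows. No start site was matched for Gnb4, so its promoter was not searched. The windows cover the 250 bases before the start, 5′ to 3′ on the gene's strand, with CpG dinucleotides in capitals.
Gng2, chr14:19976694-19976943, minus strand: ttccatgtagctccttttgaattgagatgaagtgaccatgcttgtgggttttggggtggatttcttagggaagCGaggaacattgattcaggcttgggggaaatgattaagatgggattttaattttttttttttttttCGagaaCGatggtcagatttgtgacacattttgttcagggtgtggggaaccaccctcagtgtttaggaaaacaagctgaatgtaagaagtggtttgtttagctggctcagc
Gnb5, chr9:75306038-75306287, plus strand: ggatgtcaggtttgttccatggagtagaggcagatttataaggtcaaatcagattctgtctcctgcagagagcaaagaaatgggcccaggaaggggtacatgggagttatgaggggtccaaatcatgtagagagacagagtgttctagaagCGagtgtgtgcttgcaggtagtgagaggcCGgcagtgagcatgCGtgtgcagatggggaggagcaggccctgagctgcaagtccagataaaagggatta
Gng12, chr6:66896147-66896396, plus strand: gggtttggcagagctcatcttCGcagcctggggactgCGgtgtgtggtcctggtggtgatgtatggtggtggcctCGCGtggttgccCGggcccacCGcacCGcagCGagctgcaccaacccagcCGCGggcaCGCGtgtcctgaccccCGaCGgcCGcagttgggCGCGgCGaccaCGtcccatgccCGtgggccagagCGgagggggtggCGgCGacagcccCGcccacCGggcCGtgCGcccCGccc
Gng2 and Gnb5 hold 3 CpG each and the Gng12 window shown holds 28. The median over 32851 windows of that length is 6. Of all windows, 29.03% hold fewer CpG than Gng2 and Gnb5, and 92.39% hold fewer than this Gng12 window. The second Gng12 window holds 32. The windows of the members without a called 4 h response hold 44 (Gng5), 26 (Gnb1), 18 (Gng10) and 12 (Gnb2) CpG. Whether CpG content had a part in the responses was not tested. Both strands were searched for 4 motif cores of transcription factors that act after LPS: the ISRE core (2 copies of tttc with 2 bases between them), found in 2.98% of all windows, the NF-kB core (ggg and ttcc with 3 bases between them) in 4.65%, the AP-1 motif tgantca (n is any base) in 6.75% and the C/EBP core ttgcnnaa in 9.56%. Among the windows of the 7 matched members, which leave out Gnb4, matches occurred in Gng2 alone. They were ggaaccaccc (NF-kB core, opposite strand) starting 66 bases and tgattca (AP-1) starting 167 bases before the start site. A match is a description of the letters, not a binding site.

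No other beta subunit was called between genotypes. Gnb1 encodes G beta 1, the beta subunit in which the dimer is best studied, and its signal lay between 13.86 and 14.06 on the 18 arrays, with group means from 13.95 to 13.99. Its 2 h arrays did not overlap between genotypes, yet the difference was -0.03 (SE 0.0652, limma adjusted p = 0.872). Gnb2, which encodes G beta 2, lay between 12.59 and 12.88. Its HET arrays read 12.77, 12.88 and 12.85 untreated and 12.59, 12.75 and 12.75 at 4 h, a separation of -0.14 that did not pass (limma, SE 0.0677, adjusted p = 0.12). The Gnb2 difference passed after a further quantile normalization at -0.32 (limma, adjusted p = 0.0071), and at -0.14 with the replicate number as a random block within genotype (adjusted p = 0.0481).

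Gnb5 encodes G beta 5, the divergent beta subunit that binds RGS proteins of the R7 family in place of ordinary gamma subunits, and it fell after 4 h of LPS in both genotypes. In HET its arrays read 8.38, 8.53 and 8.76 untreated (8.56 ± 0.193, SD, n = 3), 7.84, 8.27 and 8.50 at 2 h (8.20 ± 0.333, SD, n = 3), and 7.97, 8.08 and 8.14 at 4 h (8.06 ± 0.0878, SD, n = 3). In KO they read 8.45, 8.40 and 8.23 untreated (8.36 ± 0.116, SD, n = 3), 8.27, 7.99 and 8.16 at 2 h (8.14 ± 0.137, SD, n = 3), and 7.96, 7.80 and 7.83 at 4 h (7.86 ± 0.0848, SD, n = 3). In each genotype the 4 h arrays lay below all untreated arrays, while the 2 h arrays overlapped them. The 4 h change was -0.49 in HET (limma, SE 0.142, adjusted p = 0.0137) and -0.50 in KO (limma, SE 0.142, adjusted p = 0.0248). The HET call was lost without HET 4 h replicate 1 (-0.44, limma adjusted p = 0.0556) or without untreated HET replicate 3 (-0.39, limma adjusted p = 0.0725). The KO call was lost without untreated KO replicate 1 (-0.45) or 2 (-0.48), or without KO 4 h replicate 2 (-0.47) or 3 (-0.48), with limma adjusted p from 0.0771 to 0.0879. The fit pools the spread of all 6 groups, so HET arrays enter the SE of KO changes. Without the HET replicate 1 arrays at all 3 times the KO call held (-0.50, SE 0.098, limma adjusted p = 0.00163).

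Gng2 encodes G gamma 2, a common partner of G beta 1, and it also fell after 4 h. Its HET arrays read 10.81, 11.05 and 11.14 untreated (11.00 ± 0.171, SD, n = 3), 10.20, 10.58 and 10.89 at 2 h (10.56 ± 0.347, SD, n = 3), and 10.26, 10.30 and 10.70 at 4 h (10.42 ± 0.247, SD, n = 3). Its KO arrays read 11.09, 11.00 and 10.91 untreated (11.00 ± 0.089, SD, n = 3), 10.73, 10.81 and 10.67 at 2 h (10.74 ± 0.0671, SD, n = 3), and 10.36, 10.52 and 10.66 at 4 h (10.51 ± 0.15, SD, n = 3). The untreated and 4 h arrays separated in both genotypes. The 4 h change was -0.58 in HET (limma, SE 0.156, adjusted p = 0.00925) and -0.49 in KO (limma, SE 0.156, adjusted p = 0.0458). The KO call was narrow: it was lost on leaving out any 1 of the 6 untreated or 4 h KO arrays (-0.56 to -0.41, limma adjusted p from 0.0544 to 0.189). It was also lost after centring each array on its median (-0.47, adjusted p = 0.0536) and with an intensity trend and a robust prior (-0.49, limma adjusted p = 0.0511). Without the HET replicate 1 arrays at all 3 times, which enter the pooled spread, it held (-0.49, SE 0.115, limma adjusted p = 0.00564).

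Gng12 encodes G gamma 12, a widely expressed prenylated gamma subunit, and its 4 h rise was called in both genotypes with the deposited values, but in neither after a further quantile normalization (HET 0.16, limma adjusted p = 0.178; KO 0.12, adjusted p = 0.465). Its HET arrays read 13.06, 13.04 and 13.21 untreated (13.10 ± 0.0928, SD, n = 3) and 13.40, 13.39 and 13.55 at 4 h (13.45 ± 0.0904, SD, n = 3). Its KO arrays read 13.03, 13.13 and 13.13 untreated and 13.34, 13.39 and 13.35 at 4 h (13.36 ± 0.0255, SD, n = 3). The 4 h arrays lay above the untreated arrays in each genotype, and the 2 h arrays, between 13.09 and 13.20, overlapped the untreated ones. The change was 0.35 in HET (limma, SE 0.0714, adjusted p = 0.00144) and 0.26 in KO (limma, SE 0.0714, adjusted p = 0.0197). The HET call was also lost in a fit of those 6 arrays alone (0.35, limma adjusted p = 0.055). The KO call was lost without untreated KO replicate 1 (0.23) or without any 1 of the KO 4 h arrays (0.25 to 0.27), with limma adjusted p from 0.0509 to 0.0816. Without the HET replicate 1 arrays at all 3 times it held (0.26, SE 0.0687, limma adjusted p = 0.0113).

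Gng5 and Gng10 encode further prenylated gamma subunits. Gng5 ranged from 10.68 to 11.26 over the arrays and Gng10 from 9.33 to 9.63, and neither was called in any comparison with the deposited values. After a further quantile normalization, Gng10 stood 0.31 higher at 4 h in HET (limma, adjusted p = 0.0188), against -0.02 with the deposited values. Of the 8 probe sets numbered nearest to that of Gng5, 0 lay on the chromosome of Gng5, whereas 7 or 8 of 8 did for each other member, and whether its probe set reads Gng5 or a copy elsewhere was not tested.

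**Figure D2:**
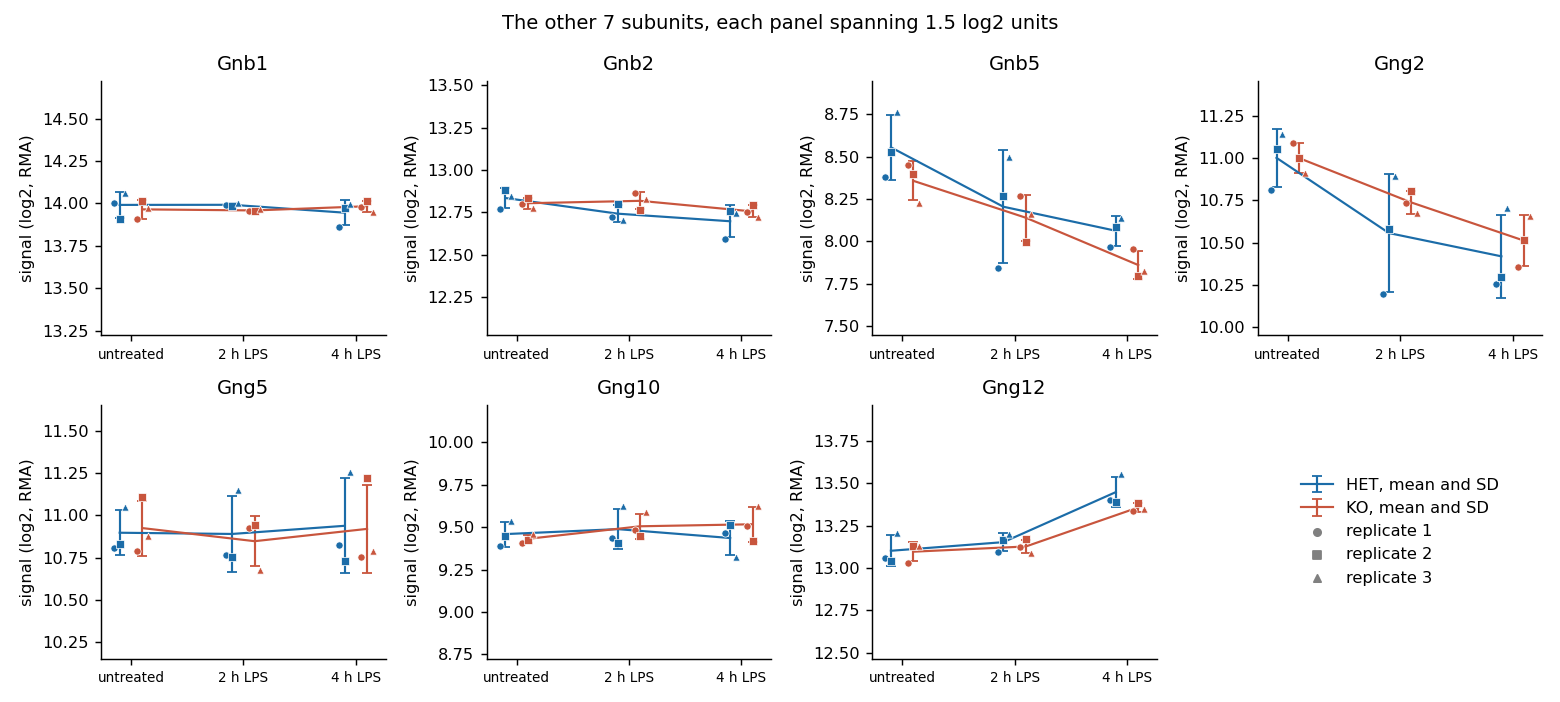
Log2 signal (vertical axis) of the 7 other subunits in untreated, 2 h and 4 h macrophages (horizontal axis), each point 1 array, HET and KO in separate colours, with group means and SD (n = 3), each panel spanning 1.5 log2 units. Gnb5 and Gng2 lie lower and Gng12 higher at 4 h than untreated in both genotypes, with the Gng12 calls lost after quantile normalization, while Gnb1 stays between 13.86 and 14.06.

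Counted together without Gnb4, 3 of 7 members passed at 4 h in HET (1 higher, 2 lower), where 36.4% of all genes were called (15.7% higher, 20.7% lower), and 3 of 7 in KO (1 higher, 2 lower), where 15.8% were (6.48% higher, 9.28% lower). The HET share lies near that of all genes. The median 4 h change over all 8 members was -0.03 in HET and 0.01 in KO, and over all genes it was 0.09 and 0.02. The test of the genotype difference in the 4 h response called 0 of 7 (0 at an unadjusted p under 0.05) and 0.0513% of all genes (limma).

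At 2 h in HET, Gng2 (-0.44, SE 0.156, limma adjusted p = 0.0709) and Gnb5 (-0.35, SE 0.142, limma adjusted p = 0.121) missed the threshold. With the replicate number as a block within genotype, both passed (Gng2 adjusted p = 0.00434, Gnb5 adjusted p = 0.0106, limma), making 3 of 8 members with Gnb4, where that fit called 27.8% of all genes. Without HET 2 h replicate 1 the changes were -0.27 for Gng2 (limma adjusted p = 0.377) and -0.17 for Gnb5 (limma adjusted p = 0.582), and without the HET replicate 1 arrays at all 3 times they were -0.36 (limma adjusted p = 0.119) and -0.26 (limma adjusted p = 0.2). Without HET 2 h replicate 3 both passed, at -0.61 for Gng2 (limma adjusted p = 0.0128) and -0.50 for Gnb5 (limma adjusted p = 0.024), and Gng2 also passed without untreated HET replicate 1 (-0.54, limma adjusted p = 0.0494).

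Between genotypes, the 7 other subunits differed by -0.20 to 0.03 without LPS and by -0.06 to 0.18 at 2 h, none called (limma, adjusted p from 0.664 to 1). Their 95% intervals at those 2 times lay between -0.50 and 0.51, so differences as large as that of Gnb4 at 2 h fell outside each of them. At 4 h, described without a test, Gnb5 differed by -0.20, Gng12 by -0.09, Gng5 by -0.02, Gnb1 by 0.04, Gnb2 by 0.06, Gng10 by 0.08 and Gng2 by 0.09. The Gnb5 and Gng12 arrays did not overlap between genotypes at 4 h. Their 95% intervals, given as a description of the spread and not as a test, were -0.50 to 0.10 and -0.24 to 0.06. The share of all genes without overlap was not counted. The median over all 8 members was -0.03 without LPS and -0.03 at 2 h, against -0.02 and 0.00 over all genes.

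**Figure D3:**
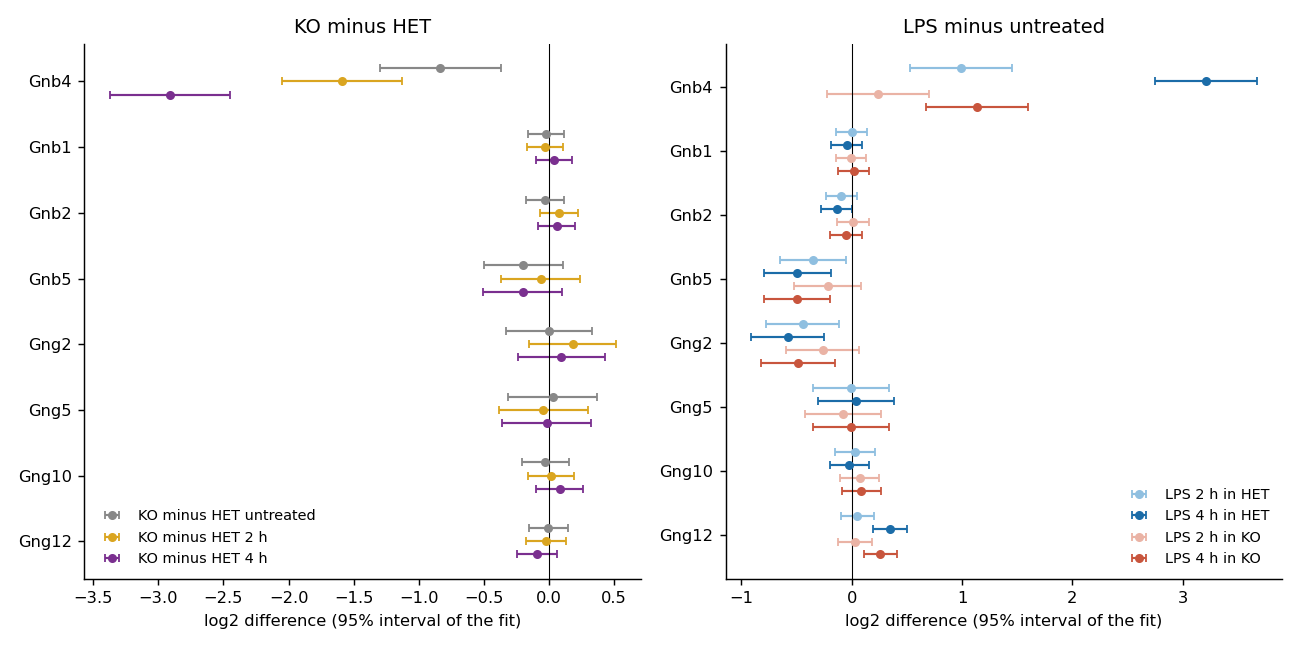
Log2 differences (horizontal axes) of the 8 subunits (vertical axis), KO minus HET on the left and LPS minus untreated on the right, with 95% intervals of the limma fit (n = 3 arrays a group). On the left Gnb4 lies at -0.83, -1.59 and -2.91 without LPS, at 2 h and at 4 h, and the other subunits lie between -0.20 and 0.18.

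The genes around the dimer came from 5 lists (other beta and gamma subunits, alpha subunits, effectors, chaperones and kinases, RGS proteins) with 77 of 82 genes measured. In each LPS comparison their share called lay near that of all genes. At 4 h, 11 rose and 18 fell in HET, and 5 rose and 9 fell in KO. At 2 h, 6 rose and 9 fell in HET, and 2 rose and 1 fell in KO. The median 4 h change of the 77 genes was 0.06 in HET and 0.02 in KO. No gene of the lists was called for a genotype difference in the LPS response (limma, 0 of 77 at 2 h and at 4 h, with 6 and 8 of 77 at an unadjusted p under 0.05). That test called 0.00% and 0.0513% of all genes at these times, so it can call few genes of any list.

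Among effectors, both regulatory subunits of the phosphoinositide 3-kinase that answers to beta-gamma rose. Pik3r6, a regulatory subunit of that kinase, read 9.91, 10.16 and 10.39 in untreated HET and 12.32, 12.10 and 12.16 at 4 h, and 10.11, 10.23 and 10.26 in untreated KO and 11.64, 11.73 and 11.66 at 4 h. It rose by 2.04 in HET (SE 0.145, limma adjusted p = 9.99e-08) and by 1.48 in KO (SE 0.145, limma adjusted p = 3.99e-06). Pik3r5, the other regulatory subunit, rose by 0.97 in HET (limma adjusted p = 0.000156) and 0.93 in KO (limma adjusted p = 0.000461). The catalytic subunit Pik3cg instead fell in HET (log2 change -0.63, limma adjusted p = 0.0272). Plcb2, a phospholipase C that beta-gamma activates, fell, with log2 changes of -1.29 in HET (limma adjusted p = 3.32e-05) and -0.71 in KO (limma adjusted p = 0.0096). Adcy7, an adenylyl cyclase that beta-gamma enhances, fell, with log2 changes of -0.92 in HET (limma adjusted p = 0.000696) and -0.62 in KO (limma adjusted p = 0.0238). The Pik3cg call was lost without HET 4 h replicate 1 (-0.32, limma adjusted p = 0.147) or untreated HET replicate 2 (-0.57, limma adjusted p = 0.0885), and without the HET replicate 1 arrays at all 3 times (-0.34, limma adjusted p = 0.0502). The KO call of Plcb2 was lost without KO 4 h replicate 1 (-0.60, limma adjusted p = 0.0597) or untreated KO replicate 3 (-0.62, limma adjusted p = 0.055). For Adcy7 the KO call was lost without any 1 of 5 arrays, all but untreated KO replicate 2 (-0.65 to -0.54, limma adjusted p from 0.0572 to 0.108). Of the 17 effectors measured, 4 rose and 4 fell at 4 h in HET, where 36.4% of all genes were called, and 3 rose and 2 fell in KO, where 15.8% were.

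Of 15 alpha subunits, 2 rose and 4 fell at 4 h in HET, against 36.4% of all genes called, and 1 rose and 2 fell in KO, against 15.8%. Gna12 fell, with log2 changes of -1.41 in HET (limma adjusted p = 1.88e-05) and -0.72 in KO (limma adjusted p = 0.0105). Its relative Gna13 rose by 0.58 in HET (limma adjusted p = 0.000793) and 0.43 in KO (limma adjusted p = 0.0131). The KO call of Gna13 was lost without KO replicate 1 untreated (0.38, limma adjusted p = 0.0589) or at 4 h (0.39, limma adjusted p = 0.0628). Gna11, of the Gq family, fell, with log2 changes of -0.97 in HET (limma adjusted p = 6.09e-06) and -0.66 in KO (limma adjusted p = 0.000436). Among the 9 other beta and gamma subunits measured, Gng4 rose in HET at 4 h by 0.67 (limma adjusted p = 0.00918) and Gngt2 fell (log2 change -0.60, limma adjusted p = 0.0117), and neither passed in KO. Without HET 4 h replicate 1, Gng4 stood at 0.40 (limma adjusted p = 0.038), and its call was lost in a fit of those 6 arrays alone (0.67, limma adjusted p = 0.0829). The Gngt2 call was lost without untreated HET replicate 3 (-0.52, limma adjusted p = 0.0542) and after a further quantile normalization (-0.45, limma adjusted p = 0.111).

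Of the 16 chaperones, kinases and turnover factors, 2 rose and 6 fell at 4 h in HET, where 36.4% of all genes were called, and 0 rose and 4 fell in KO, where 15.8% were. Ric8b, a chaperone of alpha subunits, fell, with log2 changes of -1.07 in HET (limma adjusted p = 2.34e-05) and -0.53 in KO (limma adjusted p = 0.0133). Kctd2, a relative of a ubiquitin ligase adaptor for beta-gamma, fell, with log2 changes of -1.02 in HET (limma adjusted p = 2.95e-06) and -0.64 in KO (limma adjusted p = 0.00042). The receptor kinase Grk6 fell, with log2 changes of -1.27 in HET (limma adjusted p = 0.000994) and -0.89 in KO (limma adjusted p = 0.0231). In KO, the Ric8b call was lost without KO 4 h replicate 1 (-0.47, limma adjusted p = 0.0708) or untreated replicate 3 (-0.51, limma adjusted p = 0.0555), and the Grk6 call without untreated KO replicate 2 or 3 or KO 4 h replicate 1 or 3 (-0.90 to -0.82, limma adjusted p from 0.0594 to 0.0948). Grk3, a kinase that beta-gamma brings to the membrane, rose by 1.56 in HET (limma adjusted p = 0.00492) and stood 0.90 above untreated in KO (limma adjusted p = 0.141).

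RGS proteins speed GTP hydrolysis by alpha subunits and so end beta-gamma signalling. Rgs2 fell early in both genotypes, with 2 h log2 changes of -2.20 in HET (limma adjusted p = 4.04e-05) and -2.27 in KO (limma adjusted p = 7.55e-05). Rgs16 was called higher at 2 h in HET (2.03, limma adjusted p = 0.0329) and at 4 h in KO (2.15, limma adjusted p = 0.0232). Its other changes were of like size and missed the threshold, 1.60 at 4 h in HET (limma adjusted p = 0.0506) and 2.24 at 2 h in KO (limma adjusted p = 0.0609), and its untreated HET arrays ranged from 7.97 to 10.53. The Rgs16 call in HET was lost without untreated replicate 2 or 3 or 2 h replicate 1 or 2 (1.42 to 1.97, limma adjusted p from 0.0897 to 0.166), and that in KO without untreated replicate 2 or 4 h replicate 1 or 3 (1.74 to 2.05, limma adjusted p from 0.0842 to 0.115).

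**Figure D4:**
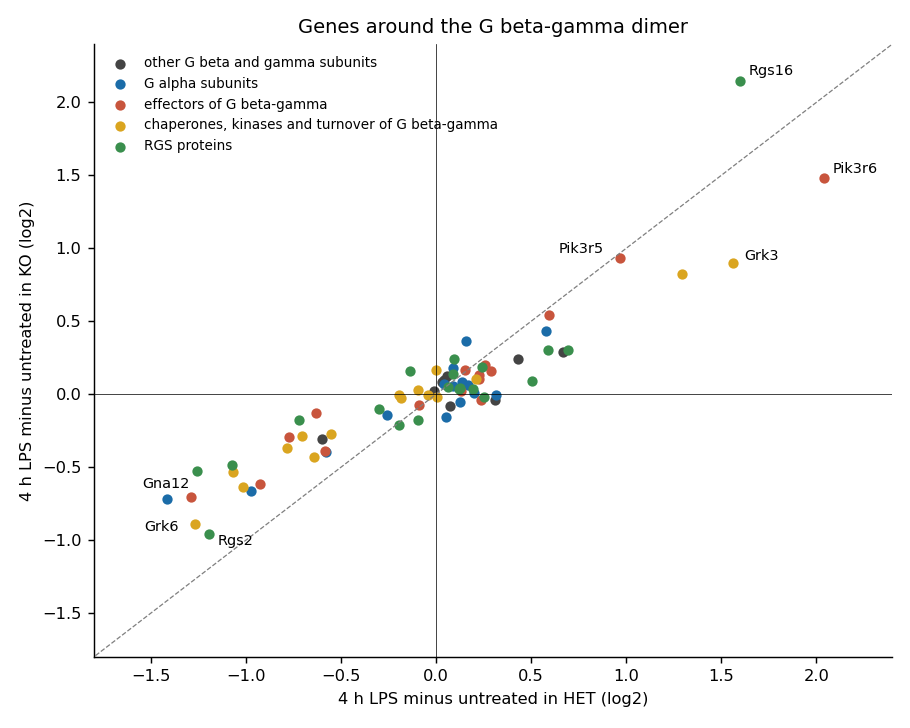
Log2 change after 4 h of LPS in HET (horizontal axis) and KO (vertical axis) for the 77 listed genes around the beta-gamma dimer, coloured by list, with the dashed line marking equal change. Pik3r6 lies at 2.04 and 1.48, and Gna12 at -1.41 and -0.72.

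Between genotypes, 1 of the 77 genes was called higher and 1 lower in KO at 2 h, a share near the 2.76% of all genes called. Gna11 was 0.52 higher (SE 0.107, limma adjusted p = 0.02), and Rgs1, a regulator of Gi and Gq subunits, differed by -1.16 (SE 0.291, limma adjusted p = 0.0451). Both calls were lost without the HET replicate 1 arrays at all 3 times (limma adjusted p = 0.0741 and 0.179), without HET 2 h replicate 1 alone (0.42 and -0.95, limma adjusted p = 0.109 and 0.24), and without HET 2 h replicate 3 or any 1 of the KO 2 h arrays (0.47 to 0.54 for Gna11, -1.30 to -0.93 for Rgs1, limma adjusted p from 0.0612 to 0.175). None of the 77 was called without LPS or at 4 h (limma, with 4 and 13 of 77 at an unadjusted p under 0.05), where 0.416% and 2.42% of all genes were.

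The genes beside Gnb4 on its chromosome are described next. RefSeq lists Mfn1, Zfp639, Kcnmb3 and Pik3ca on one side and Actl6a, Mrpl47, Ndufb5 and Usp13 on the other. None of these 8 was called between KO and HET (limma, 0 of 8 without LPS, at 2 h and at 4 h, with 0, 0 and 2 of 8 at an unadjusted p under 0.05). Of all genes, 0.416%, 2.76% and 2.42% were called, so 0 of 8 lies near those shares. Their median differences were 0.06, 0.11 and 0.20, and at 4 h they ranged from -0.19 to 0.55. Pik3ca, a catalytic phosphoinositide 3-kinase subunit, rose after 2 h of LPS by 0.52 in HET (limma adjusted p = 0.000345) and 0.35 in KO (limma adjusted p = 0.0231). The KO call of Pik3ca was lost without any 1 of 5 KO arrays, all but untreated replicate 1 (0.29 to 0.37, limma adjusted p from 0.0535 to 0.14).

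The 6 genes whose log2 signal over the 18 arrays most resembled that of Gnb4, among 2727 genes whose group means ranged over at least 1 log2 unit, were Hap1 (Pearson r = 0.982), Cobll1 (0.973), Cysltr2 (0.968), Dll1 (0.968), Rcn1 (0.964) and Svbp (0.958). These are descriptions without a test, since all points share the same 18 arrays and 6 groups. Each had its highest group mean in HET at 4 h. Dll1, a Notch ligand, rose through means of 7.44, 8.45 and 9.47 in HET and of 7.36, 7.52 and 8.06 in KO over the 3 times. Cysltr2, a G protein-coupled receptor for cysteinyl leukotrienes, had means of 5.05, 5.50 and 7.37 in HET and of 4.77, 4.85 and 5.59 in KO. Hap1, huntingtin-associated protein, had means of 7.76, 8.30 and 9.30 in HET and of 7.49, 7.57 and 7.87 in KO. Among the other subunits the same measure was 0.70 for Gng12, -0.02 for Gng5, -0.09 for Gng10, -0.22 for Gnb1, -0.31 for Gnb5, -0.64 for Gng2 and -0.66 for Gnb2.

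**Figure D5:**
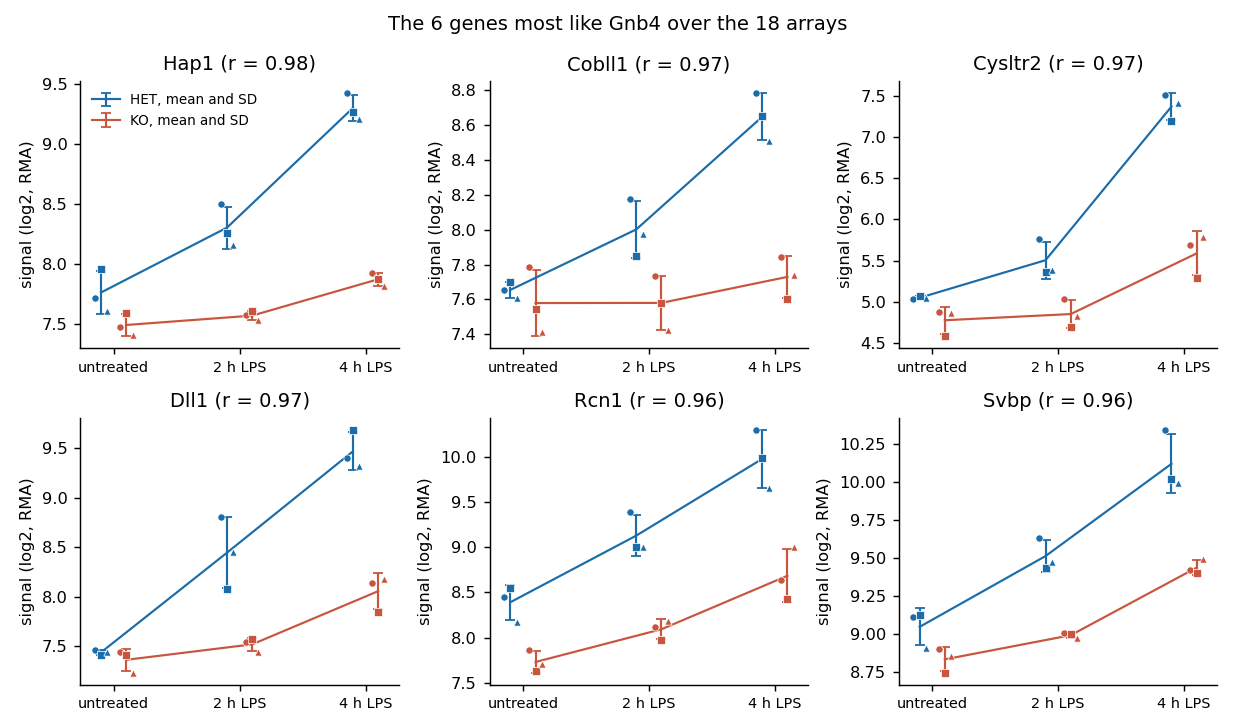
Log2 signal (vertical axes) of the 6 genes most like Gnb4 by LPS time (horizontal axes), points single arrays with marker shape for the replicate, lines and bars group mean and SD (n = 3), HET and KO in separate colours. In each panel HET at 4 h is the highest group, with a mean of 9.47 for Dll1 and 7.37 for Cysltr2.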

How the data were processed

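RNA of 18 macrophage cultures was labelled for Affymetrix whole-transcript arrays. The authors deposited log2 values summarised by RMA in Partek 6.5, per the submitters' processing notes; other steps: not given in the sources used here. Of 25344 probe sets, 21137 name 1 gene, and the one with the highest mean signal stood for each of 19475 genes; each member has 1 probe set. A mean per group was fitted with limma 3.58.1 (R 4.3.3; 12 residual degrees of freedom), with Benjamini-Hochberg adjustment over all genes and calls under 0.05. Tested on simulated data for KO minus HET at 2 h over 19475 genes, it recovered 43% of changes of 0.5 and 89% of changes of 1 (log2). The simulated errors were independent between arrays, so shared deviations of same-numbered arrays and the distance of HET replicate 1 were left out. The number of arrays limits precision. Members and lists were chosen with earlier results of these data known. Named genes are the members, Wbp7, the genes most like Gnb4, its RefSeq neighbours, and examples from among the up to 3 most changed called genes per list and direction. Pik3cg lies outside that rule and is named in addition. Same-numbered arrays deviated together within a genotype (18 pairs, r 0.32 to 0.80) but not between genotypes (9 pairs, r -0.34 to 0.25); the labels state no pairing. Alternatives were scaling, filters, fit settings, replicate blocks and left-out arrays.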

Additional observations from a re-analysis of the deposited data

How the results depend on the processing

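Gnb4 kept its call and direction at 2 h (KO minus HET) under all 16 alternatives. Array quality weights called 1 member without LPS, Gnb4 (-0.92, adjusted p = 0.0316, limma). At 2 h of LPS in HET, the count of members called was 2 with the replicate number as a block over all arrays, 3 with it as a random or a fixed block within genotype, 1 to 3 with 1 array left out, and 0 without the HET replicate 1 arrays, where Gnb4 was 0.80 (adjusted p = 0.0532, limma). A random block also moved the count at 4 h in HET from 3 to 4, and blocks changed it in no other comparison. The share of all genes called moved too: at 2 h in HET the fixed block called 27.8%, against 15.6% without a block. Shares under the other alternatives are not given here, so no count in this section is read as a result about the members. At 4 h of LPS in KO, the count was 0 to 2 with 1 array left out and 3 without the HET replicate 1 arrays. Every KO call after LPS, in members or lists, that was lost with 1 KO array left out held without the HET replicate 1 arrays. Gng10 turned from -0.02 to 0.31 (adjusted p = 0.0188, limma) for 4 h of LPS in HET after a further quantile normalization; the cause was not tested. In that comparison, centring each array moved the median of all genes from 0.09 to 0.11. With 3 arrays a group, changes well under 1 log2 unit can be missed.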

Other observations

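Gng5 showed no called change, but its arrays differed by replicate number. HET replicate 3 read highest at all 3 times (11.05, 11.15 and 11.26), while the other HET arrays lay between 10.73 and 10.83. In KO, replicate 2 read highest at all 3 times (11.11, 10.94 and 11.22), and the other KO arrays lay between 10.68 and 10.92. Gng4, whose 4 h rise in HET was called, read 9.85 in HET replicate 1 at 4 h and 8.98 and 9.13 in the other replicates.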
